A study of Mus musculus with 4 samples.

Results

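The genes described here encode nuclear pore proteins outside the Y complex, and receptors and cofactors that carry protein and RNA through the pore. The set is not complete: Nup98, Nup58, Nup42 and Nup210l, for example, were placed in a further list. The set holds 51 mouse genes: 19 nucleoporins, 5 importin alpha adaptors, 11 import receptors, 7 export receptors, 6 genes of the Ran cycle and 3 genes of the mRNA export receptor. They were chosen by name and function, with earlier results of these data known. All 51 were found among the 17621 genes of the files by Entrez gene ID, and all 51 passed a minimum mean of 1 CPM (counts scaled to the library's size) over the libraries, as did 12976 genes in all.

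The nuclear pore complex is a ring of nucleoporins set in the nuclear envelope. An inner ring and transmembrane nucleoporins hold it in place, phenylalanine-glycine repeat nucleoporins fill the channel, and filaments and a basket face the cytoplasm and the nucleus. Cargo crosses on importins and exportins, whose loading is set by the small GTPase Ran, which carries GTP in the nucleus and GDP in the cytoplasm, while most mRNA leaves on the Nxf1 and Nxt1 receptor. In dividing cells pores are also taken apart and rebuilt at each mitosis, and several of these proteins, Ran and Rcc1 among them, act on the mitotic spindle.

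The study sequenced RNA of neural stem cells cultured from newborn mouse cortex, with 1 library in each of 4 groups. Every group carried floxed alleles of Seh1 (Seh1 f/f), the Y complex nucleoporin encoded by Seh1l. The iKO groups also carried cmv-cre-ert, an inducible recombinase, and the Ctrl groups did not, so that an effect of the recombinase and an effect of losing Seh1 cannot be told apart. At day 3 iKO and Ctrl cells were in differentiation medium, after EGF and bFGF had been withdrawn, and at day 0 iKO and Ctrl cells were in growth medium with both factors. Whether and when an inducer was given, and how many animals or cultures went into a library, is not stated in the labels.

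Libraries held 19611788 expected counts for iKO at day 3, 19745921 for Ctrl at day 3, 20625897 for iKO at day 0 and 21040590 for Ctrl at day 0. Seh1l had 11.0 CPM in day 3 iKO, against 33.2 in day 3 Ctrl, and 19.2 CPM in day 0 iKO, against 40.3 in day 0 Ctrl, so it was 3.01-fold and 2.10-fold lower in the iKO libraries. The 7 markers of neural stem and progenitor cells were present in all libraries (summed CPM of 4583 in day 3 iKO, 4857 in day 3 Ctrl, 5849 in day 0 iKO and 5704 in day 0 Ctrl). The sums hide opposite directions. For iKO against Ctrl 6 of the 7 lay below 0 at day 3 (median log2 ratio -0.33) and 5 at day 0 (median -0.36). Hes5 was lowest at both days (-2.79 and -1.02). Vim was higher in iKO at day 3, with 2156 CPM against 1125 in Ctrl. Astrocyte markers summed to 19543 CPM in day 3 iKO and 13943 in day 3 Ctrl, against 2749 in day 0 iKO and 1674 in day 0 Ctrl. Apoe alone had 12096 CPM in day 3 iKO and 6765 in day 3 Ctrl. At day 3, 5 of the 6 astrocyte markers lay above 0 for iKO against Ctrl (median log2 ratio 0.56). Slc1a3 was among them at 0.01, while Aldh1l1 lay below 0 (-0.49). Neuron markers summed to 910 and 1701 CPM in day 3 iKO and day 3 Ctrl, and to 849 and 913 CPM in day 0 iKO and day 0 Ctrl. Map2 made up most of these sums, with 791 CPM in day 0 iKO and 879 in day 0 Ctrl, while 5 of the 6 neuron markers were higher in iKO at day 0 (median log2 ratio 0.57) and 5 of the 6 were lower in iKO at day 3 (median -1.39). Oligodendrocyte lineage markers summed to 724 and 1905 CPM in day 3 iKO and day 3 Ctrl, and to 1465 and 1785 CPM in day 0 iKO and day 0 Ctrl. Of the markers past 2-fold by genotype, the lowest log2 ratios of iKO to Ctrl at day 3 and at day 0 were those of the oligodendrocyte lineage genes Gpr17 (-6.41 and -1.29), Pdgfra (-4.37 and -1.35) and Sox10 (-4.21 and -1.53). The highest were those of Apoe (2.24), Gfap (1.88) and Acta2 (1.70) at day 0, and none was 2-fold higher in iKO at day 3. Markers of microglia, endothelium and fibroblasts or mural cells summed to at most 9.08, 2.60 and 16.7 CPM in any library, and 5 of 6, 4 of 5 and 2 of 6 of them were below 1 CPM in all libraries. The part of these marker differences in the results below was not tested, and in bulk RNA fewer cells of a type and less RNA per cell cannot be told apart.

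With 1 library per group there is no spread between replicates, and no difference below has a replicate check or a p-value. The log2 ratios use CPM + 1 after TMM scaling. Folds are ratios of CPM, with a 95% interval that covers counting error only, since reads are not independent molecules.

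Pore and transport genes were lower at day 3 than at day 0 in both genotypes. In Ctrl, 48 of 51 lay below 0 (background: 51.0% of all compared genes) and 26 were at least 2-fold lower (background 15.1%), with 0 at least 2-fold higher (background 14.6%). In iKO, 42 of 51 lay below 0 (background 50.4%) and 9 above (background 49.6%). Of the 51 genes in iKO, 13 were at least 2-fold lower (background 11.4%), with 0 at least 2-fold higher (background 11.2%). The median log2 ratio of day 3 to day 0 was -0.66 in iKO and -1.02 in Ctrl, against -0.01 and -0.02 for all compared genes in iKO and in Ctrl. With library totals or deposited FPKM, 46 of 51 lay below 0 in iKO under both, and 48 in Ctrl under both. The 13 genes past 2-fold in iKO were all among the 26 in Ctrl.

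The iKO library at day 0 held less of nearly all of these transcripts than the Ctrl library at day 0. Of the 51 log2 ratios 50 lay below 0 (background 56.5%), with Aaas as the exception, and the median was -0.37 against -0.06 for all compared genes. The differences were small: 0 genes were 2-fold lower (background 0.331%) or 2-fold higher (background 2.67%), and 12 were at least 1.5-fold lower (background 5.51%), with 0 at least 1.5-fold higher (background 8.92%). For 49 of 51 genes the counting interval of the fold lay wholly below 1 (background 39.5%). Such an interval is narrower for genes with more counts. The backgrounds given for intervals, here and below, hold all genes down to a mean of 1 CPM and were not matched for level. With library totals or deposited FPKM, 48 and 47 of the 51 ratios lay below 0, and the median of all genes was 0.06 and 0.04. Under TMM and under both of these, 49 lay below the median of all genes.

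At day 3 the genotypes were closer to each other. There, 22 log2 ratios of iKO to Ctrl lay above 0 (background 48.7%) and 29 below (background 51.3%), with a median of -0.06 against -0.01 for all compared genes. Aaas alone was at least 2-fold higher in iKO (1 gene, background 6.27%) and 0 genes were 2-fold lower (background 4.76%). With library totals or deposited FPKM, 38 and 37 of the 51 lay below 0, and the median of all genes was -0.09 under both. At a 1.5-fold threshold Aaas and Nup93 were higher (background 15.1%) and Nup210 and Nxf1 were lower (background 11.3%). The counting interval lay wholly above 1 for 12 genes (background 34.5%), wholly below 1 for 21 (background 35.6%), and held 1 for 18.

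**Figure D1:**
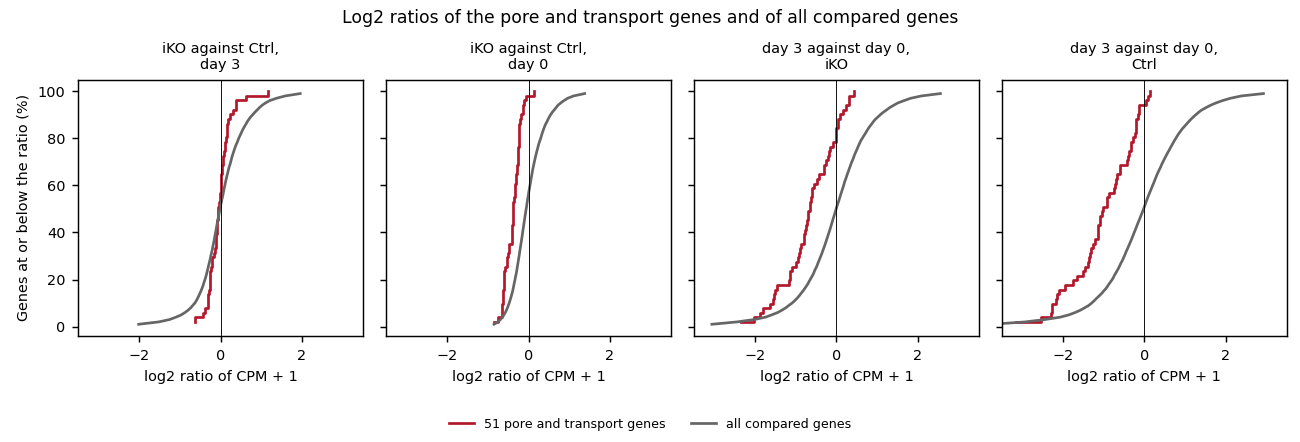
Cumulative share of genes (vertical axis, %) at or below each log2 ratio of CPM + 1 (horizontal axis) in the 4 comparisons, for the 51 pore and transport genes (red) and for all 12976 compared genes (grey, drawn at whole percentiles). The red line lies left of the grey one in 3 of the 4 panels, with medians of -0.37 for iKO against Ctrl at day 0 and of -0.66 and -1.02 for day 3 against day 0 in iKO and in Ctrl, and crosses it near 0 at day 3 (median -0.06).

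Levels between genes can be compared only per length, in FPKM. The 51 genes together held 1173 FPKM in day 3 iKO and 1248 in day 3 Ctrl, against 2343 in day 0 iKO and 2943 in day 0 Ctrl. All transcripts together held 403841 FPKM in day 3 iKO, 385233 in day 3 Ctrl, 445874 in day 0 iKO and 452779 in day 0 Ctrl. FPKM values are therefore not on equal totals between libraries. Ranbp1 and Ran were the most abundant in every library, at 83.3 and 76.8 FPKM in day 3 iKO, 87.2 and 79.0 in day 3 Ctrl, 283 and 239 in day 0 iKO and 401 and 332 in day 0 Ctrl. Kpna2 and Kpnb1 came next at day 0, and Kpnb1 and Tnpo1 came next at day 3. Xpo4 and the scaffold nucleoporin Nup155 lay at the low end, with Nup155 at 4.06 FPKM in day 3 iKO, 5.25 in day 3 Ctrl, 9.99 in day 0 iKO and 13.3 in day 0 Ctrl.

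**Figure D2:**
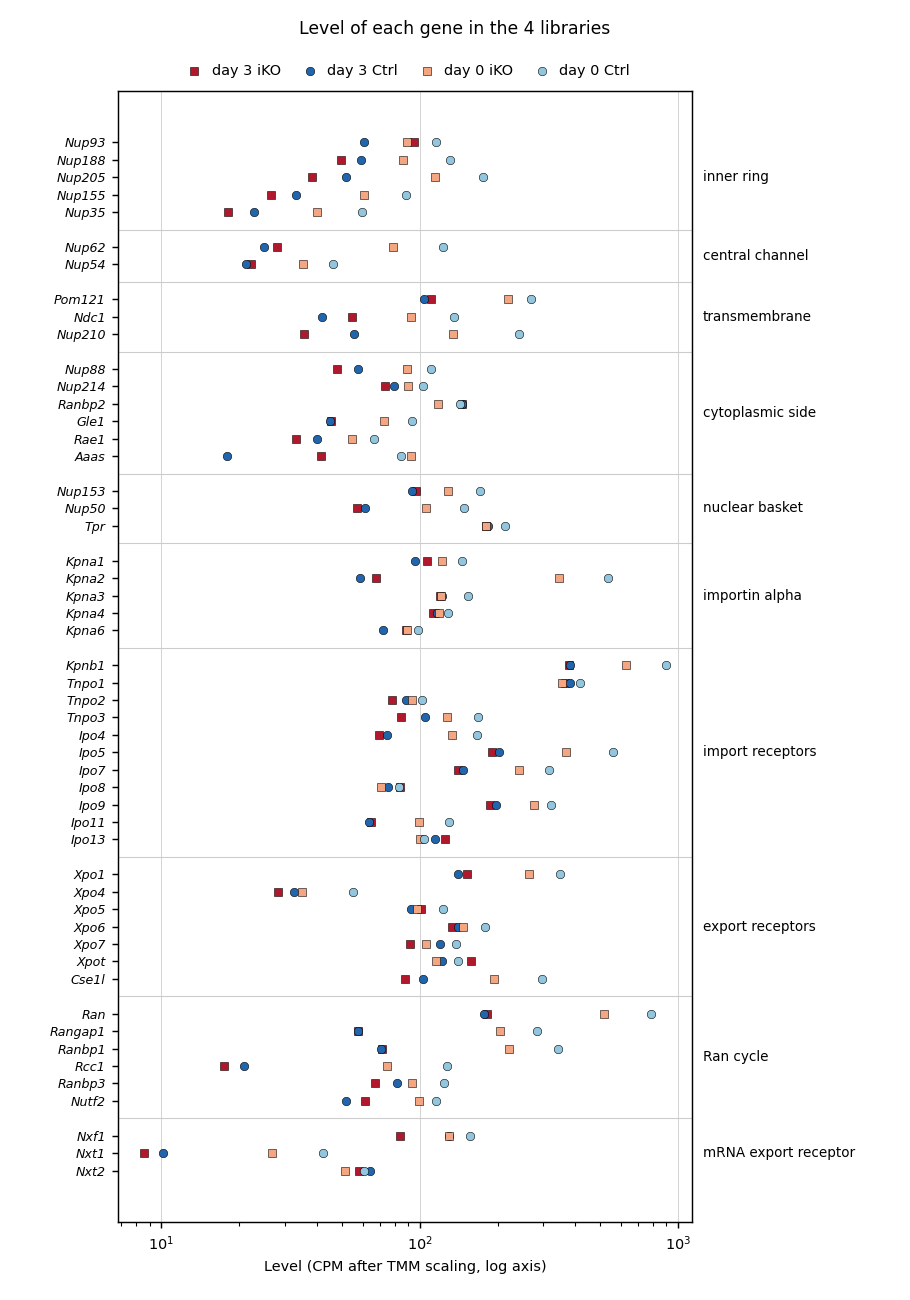
Level of each of the 51 genes in the 4 libraries (horizontal log axis, CPM after TMM scaling), grouped by role from top to bottom; squares are iKO and circles are Ctrl, dark at day 3 and pale at day 0, 1 library each. For most genes the pale symbols lie right of the dark ones and the pale circle lies farthest right, as for Kpna2 with 67.4, 58.8, 347 and 533 CPM in day 3 iKO, day 3 Ctrl, day 0 iKO and day 0 Ctrl.

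The inner ring genes encode the scaffold that lines the pore. Nup205, a large scaffold protein, had 38.2 CPM in day 3 iKO, 51.7 in day 3 Ctrl, 114 in day 0 iKO and 176 in day 0 Ctrl. Its relative Nup188 had 49.4 CPM in day 3 iKO, 59.2 in day 3 Ctrl, 86.1 in day 0 iKO and 131 in day 0 Ctrl. Both were lower at day 3 than at day 0 and lower in iKO than in Ctrl at each day. Nup155, which also touches the membrane, had 26.6 CPM in day 3 iKO, 33.3 in day 3 Ctrl, 60.7 in day 0 iKO and 88.6 in day 0 Ctrl. The membrane-binding Nup35 had 18.1 CPM in day 3 iKO, 22.9 in day 3 Ctrl, 39.9 in day 0 iKO and 59.6 in day 0 Ctrl. In Ctrl these 4 genes were 2.22-fold to 3.41-fold lower at day 3 than at day 0, and in iKO 3 of the 4 passed 2-fold, Nup188 being 1.74-fold lower.

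Nup93 (Entrez 71805, chr8:94214564-94328100 in GRCm38), which anchors the other inner ring proteins, stood apart from them. It had 94.8 CPM in day 3 iKO, against 61.0 in day 3 Ctrl, and 89.3 CPM in day 0 iKO, against 116 in day 0 Ctrl. Its level at day 3 was thus 1.55-fold higher in iKO than in Ctrl (counting interval 1.44 to 1.67), while at day 0 it was 1.29-fold lower (1.22 to 1.38). Across the days its log2 ratio was 0.09 in iKO and -0.91 in Ctrl. The 4 other inner ring genes had log2 ratios of iKO to Ctrl between -0.43 and -0.26 at day 3.

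Nup62 and Nup54 encode repeat proteins of the central channel. Nup62 had 28.1 CPM in day 3 iKO, 25.0 in day 3 Ctrl, 78.6 in day 0 iKO and 123 in day 0 Ctrl. Nup54 had 22.3 CPM in day 3 iKO, 21.2 in day 3 Ctrl, 35.3 in day 0 iKO and 46.3 in day 0 Ctrl. Both counting intervals for iKO against Ctrl held 1 at day 3. At day 0 Nup62 was 1.57-fold lower in iKO (1.48 to 1.67) and Nup54 1.31-fold lower (1.19 to 1.44). In Ctrl Nup62 was 4.93-fold lower at day 3 than at day 0 (4.48 to 5.44), and in iKO 2.79-fold lower (2.53 to 3.08).

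Among the transmembrane nucleoporins, Nup210 (Entrez 54563, chr6:91013067-91118322) had 35.7 CPM in day 3 iKO, 55.6 in day 3 Ctrl, 134 in day 0 iKO and 241 in day 0 Ctrl. It was the lowest of the 51 genes for iKO against Ctrl at both days, 1.56-fold lower at day 3 (1.42 to 1.72) and 1.80-fold lower at day 0 (1.72 to 1.89). Nup210 is not found in the pores of every mouse cell type and is known for a part in muscle and neural differentiation. Across the days it was 3.76-fold lower in iKO and 4.34-fold lower in Ctrl. Ndc1, which ties the scaffold to the membrane, had 54.8 CPM in day 3 iKO, 42.0 in day 3 Ctrl, 92.7 in day 0 iKO and 135 in day 0 Ctrl. Pom121, which acts early in pore assembly, had 110 CPM in day 3 iKO, 104 in day 3 Ctrl, 219 in day 0 iKO and 270 in day 0 Ctrl. Ndc1 was thus 1.30-fold higher in iKO at day 3 (1.19 to 1.43) and 1.45-fold lower at day 0 (1.37 to 1.54), whereas for Pom121 the interval held 1 at day 3.

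On the cytoplasmic side, Aaas (Entrez 223921, chr15:102338247-102350759) gave the largest difference between genotypes. Aaas encodes aladin, a protein that Ndc1 holds at the pore and that is mutated in triple A syndrome in humans. It had 41.3 CPM in day 3 iKO, against 17.9 in day 3 Ctrl, and 92.6 CPM in day 0 iKO, against 84.7 in day 0 Ctrl. It was 2.31-fold higher in iKO at day 3 (2.04 to 2.63) and 1.09-fold higher at day 0 (1.02 to 1.17). For day 3 against day 0 its log2 ratio was -1.15 in iKO and -2.18 in Ctrl, so the day 3 Ctrl library held the lowest level of the 4. It was also the only 1 of the 51 genes listed in the authors' deposited table for day 3, with a log2 ratio of 1.13 and an FDR of 5.34e-36, which compares 2 libraries and does not measure spread between cultures. The authors' deposited table for day 0, as used here, has 103 rows, of which the last is cut short, and lists 0 of the 51 genes.

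The other cytoplasmic nucleoporins differed less. Ranbp2, the large filament protein that binds Ran and ligates SUMO, had 146 CPM in day 3 iKO, 146 in day 3 Ctrl, 118 in day 0 iKO and 143 in day 0 Ctrl. Gle1, which activates the helicase that strips mRNA of export proteins, had 45.4 CPM in day 3 iKO, 45.0 in day 3 Ctrl, 72.4 in day 0 iKO and 93.3 in day 0 Ctrl. Their levels were nearly equal between genotypes at day 3, and each was lower in iKO at day 0 (1.21-fold and 1.29-fold). Nup88 had 47.7 CPM in day 3 iKO, 57.7 in day 3 Ctrl, 89.0 in day 0 iKO and 110 in day 0 Ctrl, and its partner Nup214, a docking site for Xpo1, had 73.4, 79.1, 90.3 and 103 CPM in day 3 iKO, day 3 Ctrl, day 0 iKO and day 0 Ctrl. The mRNA export factor Rae1 had 33.3 CPM in day 3 iKO, 39.9 in day 3 Ctrl, 54.6 in day 0 iKO and 66.4 in day 0 Ctrl. For Nup88 and Rae1 the iKO to Ctrl ratio was about as low at day 3 (log2 of -0.27 and -0.25) as at day 0 (-0.30 and -0.28).

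The basket genes were highest in the day 0 Ctrl library. Nup50, which helps release importin alpha cargo, had 57.1 CPM in day 3 iKO, 61.3 in day 3 Ctrl, 106 in day 0 iKO and 148 in day 0 Ctrl. Nup153, which tethers the basket, had 96.5 CPM in day 3 iKO, 93.4 in day 3 Ctrl, 129 in day 0 iKO and 171 in day 0 Ctrl. Tpr, the basket filament itself, had 181 CPM in day 3 iKO, 183 in day 3 Ctrl, 181 in day 0 iKO and 213 in day 0 Ctrl. All 3 were lower in iKO at day 0, by 1.40-fold, 1.32-fold and 1.18-fold, and all 3 counting intervals held 1 at day 3.

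Importin alpha proteins are the adaptors that read classical nuclear localisation signals. Kpna2 (Entrez 16647, chr11:106988629-106999525) had 67.4 CPM in day 3 iKO, 58.8 in day 3 Ctrl, 347 in day 0 iKO and 533 in day 0 Ctrl, and its day difference was the largest of the 51 genes in both genotypes. It was 5.15-fold lower at day 3 in iKO (4.85 to 5.46) and 9.05-fold lower in Ctrl (8.52 to 9.62). At day 0 it was 1.54-fold lower in iKO than in Ctrl (1.49 to 1.58), and at day 3 it was 1.14-fold higher in iKO (1.06 to 1.24). In mouse embryonic stem cells Kpna2 is the main importin alpha and gives way to other members as the cells turn neural.

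The 4 other importin alpha genes kept to a narrow range. Kpna1 had 107 CPM in day 3 iKO, 95.4 in day 3 Ctrl, 122 in day 0 iKO and 146 in day 0 Ctrl. Kpna3 had 120 CPM in day 3 iKO, 122 in day 3 Ctrl, 121 in day 0 iKO and 153 in day 0 Ctrl. None of the 4 was 2-fold lower at day 3 in either genotype. Kpna4 had 112 CPM in day 3 iKO, 117 in day 3 Ctrl, 119 in day 0 iKO and 128 in day 0 Ctrl, and Kpna6 had 88.4, 71.9, 89.3 and 98.0 CPM in day 3 iKO, day 3 Ctrl, day 0 iKO and day 0 Ctrl. Per length, Kpna2 made up 25.3% of the importin alpha FPKM in day 3 iKO and 23.5% in day 3 Ctrl, against 62.3% in day 0 iKO and 68.6% in day 0 Ctrl. As a share of importin alpha counts it was 13.6% (exact binomial interval 12.9 to 14.3) in day 3 iKO and 12.7% (12 to 13.3) in day 3 Ctrl, against 43.4% (42.7 to 44.2) in day 0 iKO and 50.3% (49.7 to 51.0) in day 0 Ctrl. The intervals of the day 0 libraries were apart from each other and from those of day 3, and the share at day 0 was lower in iKO.

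**Figure D3:**
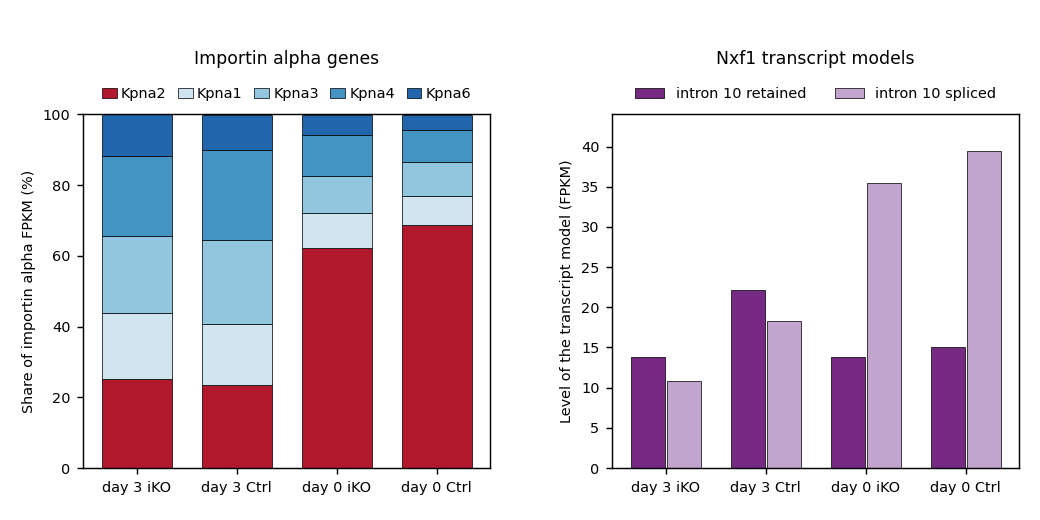
Left, the share of each importin alpha gene in the family's summed FPKM (vertical axis, %) in the 4 libraries, with Kpna2 in red; right, the FPKM of the Nxf1 transcript models that retain or splice intron 10 in the same libraries. Kpna2 covers 25.3% and 23.5% at day 3 in iKO and Ctrl and 62.3% and 68.6% at day 0 in iKO and Ctrl, and the retained Nxf1 model stands above the spliced one only at day 3.

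Kpnb1, importin beta, carries importin alpha and its cargo through the channel. It had 379 CPM in day 3 iKO, 381 in day 3 Ctrl, 628 in day 0 iKO and 893 in day 0 Ctrl. Ipo5, a carrier of ribosomal proteins and histones, had 191 CPM in day 3 iKO, 202 in day 3 Ctrl, 369 in day 0 iKO and 558 in day 0 Ctrl. These were 1.42-fold (1.39 to 1.45) and 1.51-fold (1.47 to 1.56) lower in iKO at day 0 and near equal between genotypes at day 3. Ipo7, another carrier of ribosomal proteins, had 141 CPM in day 3 iKO, 147 in day 3 Ctrl, 241 in day 0 iKO and 316 in day 0 Ctrl. Ipo4, a histone carrier, had 69.8 CPM in day 3 iKO, 74.8 in day 3 Ctrl, 133 in day 0 iKO and 166 in day 0 Ctrl, and shares 2583 bases of its exons with the model gene Gm49378, so its counts are uncertain. Ipo11 had 64.9 CPM in day 3 iKO, 63.7 in day 3 Ctrl, 99.0 in day 0 iKO and 130 in day 0 Ctrl. These 5 were the import receptors at least 2-fold lower at day 3 in Ctrl, and none of the 11 was in iKO.

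The 6 other import receptors were less than 2-fold apart between the days. Ipo13, which both imports and exports, had 125 CPM in day 3 iKO, 114 in day 3 Ctrl, 100 in day 0 iKO and 104 in day 0 Ctrl, and it was the highest of the 51 genes for day 3 against day 0 in Ctrl (log2 of 0.13). Tnpo1, the carrier of many RNA-binding proteins, had 363 CPM in day 3 iKO, 381 in day 3 Ctrl, 355 in day 0 iKO and 418 in day 0 Ctrl. Ipo8 had 83.9 CPM in day 3 iKO, 75.2 in day 3 Ctrl, 71.0 in day 0 iKO and 83.3 in day 0 Ctrl. Tnpo1 was thus abundant in all libraries, and its share of the import receptor FPKM was 13.0% in day 3 iKO and 13.1% in day 3 Ctrl, against 8.72% in day 0 iKO and 7.85% in day 0 Ctrl. Tnpo3, the carrier of SR splicing factors, had 84.4 CPM in day 3 iKO, 105 in day 3 Ctrl, 127 in day 0 iKO and 168 in day 0 Ctrl, and was 1.24-fold lower in iKO at day 3 (1.16 to 1.33) and 1.32-fold lower at day 0 (1.26 to 1.39). Across the days Tnpo3 was 1.51-fold lower in iKO and 1.60-fold lower in Ctrl. Ipo9, a histone carrier, had 187 CPM in day 3 iKO, 198 in day 3 Ctrl, 276 in day 0 iKO and 323 in day 0 Ctrl, 1.47-fold lower at day 3 in iKO and 1.64-fold lower in Ctrl. Tnpo2, a close relative of Tnpo1, had 78.2 CPM in day 3 iKO, 88.1 in day 3 Ctrl, 93.2 in day 0 iKO and 102 in day 0 Ctrl.

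Among export receptors, Xpo1, which exports proteins with leucine-rich signals, had 152 CPM in day 3 iKO, 140 in day 3 Ctrl, 265 in day 0 iKO and 350 in day 0 Ctrl. Cse1l, which returns importin alpha to the cytoplasm, had 87.4 CPM in day 3 iKO, 103 in day 3 Ctrl, 194 in day 0 iKO and 296 in day 0 Ctrl. Cse1l was 2.22-fold lower at day 3 in iKO and 2.86-fold lower in Ctrl, and Xpo1 was 1.75-fold lower in iKO and 2.51-fold lower in Ctrl. Xpo4 had 28.2 CPM in day 3 iKO, 32.6 in day 3 Ctrl, 35.0 in day 0 iKO and 55.0 in day 0 Ctrl, a 1.57-fold lower level in iKO at day 0 (1.43 to 1.73).

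The exporters of small RNAs differed less between the days. Xpot, which exports tRNA, had 158 CPM in day 3 iKO, against 122 in day 3 Ctrl, and 116 CPM in day 0 iKO, against 140 in day 0 Ctrl. It was 1.30-fold higher in iKO at day 3 (1.23 to 1.38) and 1.20-fold lower at day 0 (1.14 to 1.27), and its log2 ratio of day 3 to day 0 was the highest of the 51 genes in iKO (0.44) and -0.20 in Ctrl. Xpo5, which exports microRNA precursors, had 101 CPM in day 3 iKO, 92.3 in day 3 Ctrl, 97.6 in day 0 iKO and 123 in day 0 Ctrl. Xpo7 had 91.3 CPM in day 3 iKO, 120 in day 3 Ctrl, 106 in day 0 iKO and 138 in day 0 Ctrl, so that it was lower in iKO by nearly the same factor at day 3 (1.31-fold) and at day 0 (1.29-fold). Xpo6, the exporter of actin with profilin, had 133 CPM in day 3 iKO, 141 in day 3 Ctrl, 147 in day 0 iKO and 178 in day 0 Ctrl.

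The Ran cycle genes were the role group with the lowest median across the days, at a log2 ratio of -1.56 in iKO and -2.21 in Ctrl. Rcc1, the exchange factor that loads Ran with GTP on chromatin, had 17.5 CPM in day 3 iKO, 20.9 in day 3 Ctrl, 74.6 in day 0 iKO and 127 in day 0 Ctrl. Rangap1, which makes Ran hydrolyse GTP at the pore, had 57.5 CPM in day 3 iKO, 57.4 in day 3 Ctrl, 204 in day 0 iKO and 285 in day 0 Ctrl. Rcc1 was 4.27-fold lower at day 3 in iKO (3.79 to 4.82) and 6.05-fold lower in Ctrl (5.45 to 6.72), next to Kpna2 in both. Ran itself had 182 CPM in day 3 iKO, 177 in day 3 Ctrl, 518 in day 0 iKO and 787 in day 0 Ctrl. Its helper Ranbp1 had 71.7 CPM in day 3 iKO, 70.9 in day 3 Ctrl, 222 in day 0 iKO and 344 in day 0 Ctrl. At day 0 these genes were lower in iKO by 1.70-fold (Rcc1, 1.59 to 1.81), 1.40-fold (Rangap1, 1.34 to 1.45), 1.52-fold (Ran, 1.48 to 1.56) and 1.55-fold (Ranbp1, 1.49 to 1.61). At day 3 the intervals of Ran, Rangap1 and Ranbp1 held 1 and Rcc1 was 1.20-fold lower in iKO (1.03 to 1.39).

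The remaining Ran cycle genes were nearer to 0. Nutf2, which returns Ran to the nucleus, had 61.3 CPM in day 3 iKO, 51.7 in day 3 Ctrl, 99.5 in day 0 iKO and 116 in day 0 Ctrl. A processed copy, Nutf2-ps2, had 22.7, 25.9, 59.4 and 71.6 CPM in day 3 iKO, day 3 Ctrl, day 0 iKO and day 0 Ctrl, so reads may have been split between them and the values of Nutf2 are uncertain. Ranbp3, a cofactor of Xpo1, had 66.9 CPM in day 3 iKO, 81.8 in day 3 Ctrl, 93.2 in day 0 iKO and 124 in day 0 Ctrl. The Ran-like retrogene Rasl2-9 was at most 0.477 CPM. Rcc1 and Ranbp1 also share 135 and 281 exon bases with a neighbouring gene, Snhg3 and Gm49776, and in all 13 of the 51 genes overlap another gene's exons by more than 100 bases.

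**Figure D4:**
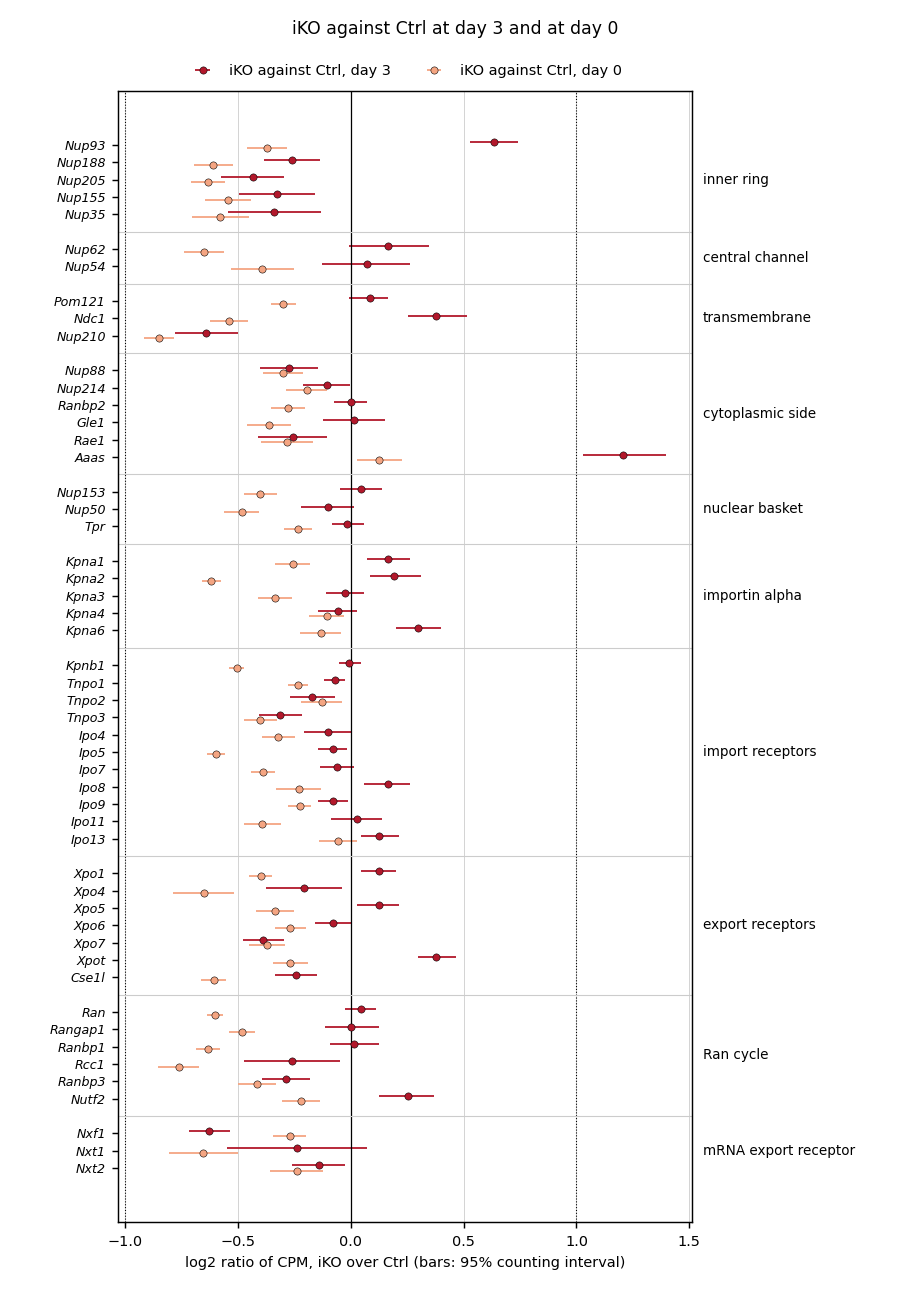
Log2 ratio of CPM without a pseudocount, iKO over Ctrl (horizontal axis), at day 3 (dark, upper of each pair) and at day 0 (pale, lower of each pair) for the 51 genes by role; bars are 95% counting intervals with 1 library per group, and dotted lines mark 2-fold. At day 0 all points but that of Aaas lie left of 0, while at day 3 they lie on both sides and only Aaas passes 2-fold.

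Nxf1 and Nxt1 form the receptor that takes mRNA out of the nucleus. Nxf1 (Entrez 53319, chr19:8757103-8770910) had 83.9 CPM in day 3 iKO, 130 in day 3 Ctrl, 130 in day 0 iKO and 157 in day 0 Ctrl. It was 1.54-fold lower in iKO at day 3 (1.45 to 1.65) and 1.21-fold lower at day 0 (1.15 to 1.27). Its difference between the days was the most negative of the 51 genes (log2 ratio at day 3 minus that at day 0 of -0.35), and with Tnpo2 and Xpo7 it was 1 of only 3 genes below 0 there, although 15 and 14 genes lay below 0 with library totals and with deposited FPKM. Nxt1 had 8.59 CPM in day 3 iKO, 10.1 in day 3 Ctrl, 26.9 in day 0 iKO and 42.3 in day 0 Ctrl. Nxt2, a relative of Nxt1, had 58.2 CPM in day 3 iKO, 64.3 in day 3 Ctrl, 51.5 in day 0 iKO and 60.8 in day 0 Ctrl. Nxt1 was thus lower at day 3 in both genotypes (3.13-fold in iKO and 4.17-fold in Ctrl), and Nxt2 was not.

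The deposited files split Nxf1 between 2 RefSeq transcript models. The first is spliced throughout, with 21 exons, 2326 bases and 618 codons. The second keeps intron 10, a stretch of 1765 bases at chr19:8765032-8766796 on the + strand of GRCm38, and has 20 exons, 4042 bases and a reading frame of 418 codons that ends inside the intron. The 30 bases across the 5′ splice site of that intron, at chr19:8765017-8765046, show where the models part, with the end of exon 10 in capitals and the intron in lower case.
Nxf1 exon 10 and intron 10: GTCCAGCTATATCAGgtcagttgtagcctc
An Nxf1 mRNA that keeps this intron is known, and in rodent neurons it is translated into a short protein. The retained model had 13.8 FPKM in day 3 iKO, 22.2 in day 3 Ctrl, 13.8 in day 0 iKO and 15.1 in day 0 Ctrl. The spliced model had 10.8 FPKM in day 3 iKO, 18.3 in day 3 Ctrl, 35.5 in day 0 iKO and 39.5 in day 0 Ctrl. The retained model held 69.4% of the Nxf1 counts in day 3 iKO (exact binomial interval 67.0 to 71.6) and 68.4% in day 3 Ctrl (66.5 to 70.1), against 40.9% in day 0 iKO (39.0 to 42.7) and 40.5% in day 0 Ctrl (38.8 to 42.2). The share therefore differed by day and was alike in both genotypes, and the lower Nxf1 level in day 3 iKO was shared by both models. Reads from unspliced precursor RNA could be assigned to the retained model, and their part was not tested.

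Other genes were also split between transcript models. For 30 of the 51 genes at least 2 transcripts held 10% or more of the counts in some library. The share of the main transcript moved by 10 percentage points or more in the same direction between the days in both genotypes for 12 of them (background: 24.7% of the 8048 compared genes split in this way), Nxf1 with 28.5 points in iKO and 27.8 in Ctrl among them. Xpo6 moved by 18.0 points in iKO and 18.3 in Ctrl, and Nup88 by 12.2 in iKO and 12.1 in Ctrl. By genotype Nxt1 was the 1 gene of the 30 that moved that much in the same direction at both days (background 11.7%), with a main transcript share of 72.6% in day 3 iKO and 88.7% in day 3 Ctrl, and of 80.7% in day 0 iKO and 92.3% in day 0 Ctrl. The main model of Nup93 held 61.1% of its counts in day 3 iKO and 83.1% in day 3 Ctrl, against 94.9% in day 0 iKO and 97.4% in day 0 Ctrl. This Nup93 model had 20.4 FPKM in day 3 iKO and 18.9 in day 3 Ctrl, and a second model had 10.3 and 3.39. The higher Nup93 level in day 3 iKO thus lay mainly outside the main model. Such shares and levels of single models are estimates of the authors' counting. The estimate for the main model of Nup188 was 29.2% in day 3 iKO and 100% in day 3 Ctrl.

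The iKO to Ctrl ratio was higher at day 3 than at day 0 for 48 of the 51 genes (background 55.6%) and lower for 3 (background 44.4%), and the median difference of the log2 ratios was 0.37 against 0.06 for all compared genes. Only Aaas reached 1 (1.04, background 3.71%), and 0 reached -1 (background 5.50%). Aaas lay between 0.80 and 1.08 over the other scalings and pseudocounts: 0 genes reached 1 with library totals, deposited FPKM or a pseudocount of 5, and 2 did with DESeq2 size factors or a pseudocount of 0.1. At 1.5-fold 8 genes were higher (background 13.1%). For 10 genes iKO lay above Ctrl at day 3 and below it at day 0 with both counting intervals apart from 1 (background 6.94%). Nup93 was just under 1 (1.00), with Ndc1 at 0.91, Kpna2 and Nup62 at 0.81 each and Ran, Ranbp1 and Xpot at 0.65 each. The difference is made of the same 4 values as the ratios above, so it is no further evidence. Seen by day, the ratio of day 3 to day 0 in iKO was above that in Ctrl for 48 genes and below it for 3. With library totals or deposited FPKM the median of this difference was 0.17 or 0.16 for the 51 genes, against -0.13 or -0.11 for all compared genes, and 15 or 14 of the 51 lay below 0.

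**Figure D5:**
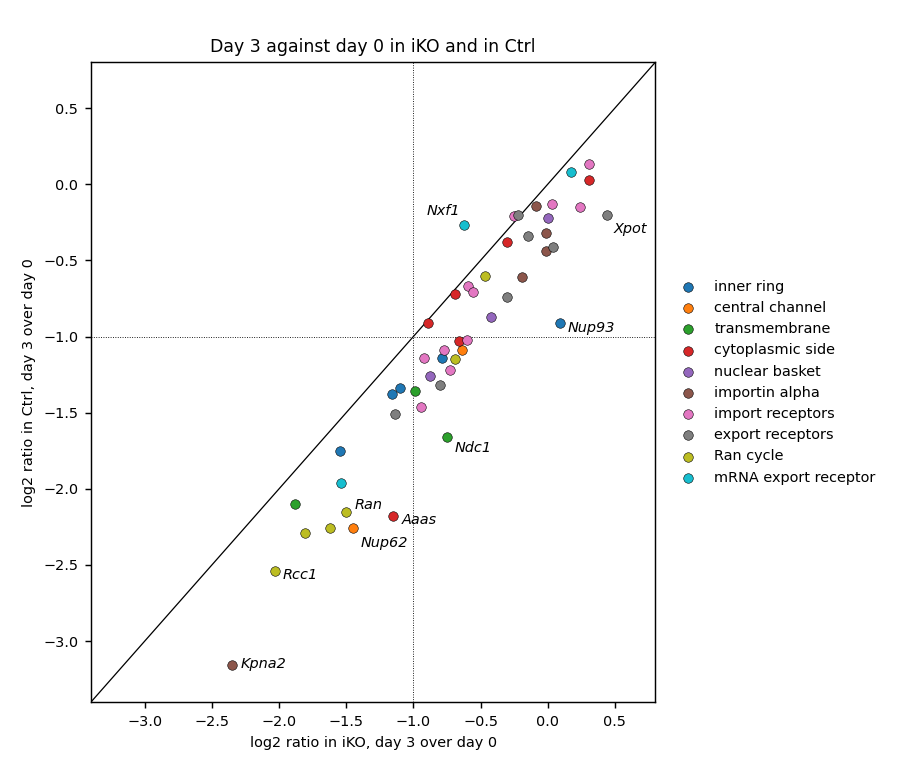
Log2 ratio of CPM + 1, day 3 over day 0, in iKO (horizontal axis) and in Ctrl (vertical axis) for the 51 genes, coloured by role; 1 library per group, with equality on the diagonal and 2-fold on the dotted lines. Of the 51 points 48 lie below the diagonal, from Kpna2 at -2.35 in iKO and -3.16 in Ctrl to Xpot at 0.44 in iKO and -0.20 in Ctrl, and Nxf1 is the point farthest above it.

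The listed genes of mitosis and of DNA replication were lower at day 3 and, at day 0, lower in iKO. Each of the 20 mitosis genes and of the 20 replication genes was lower by 2-fold or more at day 3 than at day 0 in each genotype. The mitosis list had a median log2 ratio of -3.72 in iKO and -4.09 in Ctrl, and the replication list one of -2.44 in iKO and -3.21 in Ctrl. At day 0 all 20 of each list lay below 0 for iKO against Ctrl, with medians of -0.74 for mitosis and -0.75 for replication, and 19 of each 20 were at least 1.5-fold lower. At day 3 those medians were -0.20 and 0.06. The part of these genes in the result for the pore and transport genes was not tested.

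Other genes of the pathway were given by list. A list of 19 more nuclear transport genes included the nucleoporin genes Nup98, Nup58, Nup42 and Nup210l. Of the 19, 0 were 2-fold lower in iKO at day 3 (background 4.76%) or at day 0 (background 0.331%). Likewise 0 were 2-fold higher at day 3 (background 6.27%) or at day 0 (background 2.67%). The medians were -0.10 at day 3 and -0.18 at day 0. Across the days 1 of the 19 in iKO (background 11.4%) and 2 in Ctrl (background 15.1%) were at least 2-fold lower, with medians of -0.41 and -0.21. The 13 genes of the TREX complex and its adaptors load mRNA onto Nxf1. All 13 lay below 0 for iKO against Ctrl at day 3 (background 51.3%) and at day 0 (background 56.5%). Their medians were -0.29 at day 3 and -0.33 at day 0, and 0 were past 2-fold. Across the days 5 of the 13 were at least 2-fold lower in iKO (background 11.4%) and 5 in Ctrl (background 15.1%), with medians of -0.81 and -0.85. The iKO to Ctrl ratio was higher at day 3 than at day 0 for 11 of the 19 transport genes (median difference 0.04). It was higher for 7 of the 13 TREX and adaptor genes (median difference 0.01). Over all compared genes it was higher for 55.6% (median difference 0.06), and over the 51 genes for 48 (median difference 0.37). Ddx39a, a helicase of this complex picked after its values were seen, had the lowest log2 ratios of day 3 to day 0 among the 13 (-2.11 in iKO and -2.48 in Ctrl), with 13.0 CPM in day 3 iKO and 15.1 in day 3 Ctrl, against 59.3 in day 0 iKO and 88.8 in day 0 Ctrl.

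Since many of these genes were lower together at day 3, their promoters were searched for 7 motifs on both strands, in the RefSeq windows of GRCm38.p6 from 250 bases before to 50 bases after each transcript start. Of the 51 genes 43 had a window, and these had 52 windows in all. The CCAAT box (CCAAT) was in 23 of the 52 windows (44.2%, against 37.4% of all 32851 windows of that length and 37.9% of the 13339 windows of compared genes). The E-box CACGTG was in 9 (17.3%, against 7.15% and 9.75%), the ETS motif CCGGAAGT in 7 (13.5%, against 3.89% and 7.61%) and the NRF1 core motif GCGCATGC in 6 (11.5%, against 2.71% and 5.03%). The cell cycle homology region TTTGAA was in 11 windows (21.2%, against 17.9% and 11.6%), an E2F motif (TTTCCCGC or TTTGGCGC) in 2 (3.85%, against 1.56% and 2.81%) and the CRE TGACGTCA in 1 (1.92%, against 1.79% and 3.0%). None of these strings contains another. Of the 27 windows of genes at least 2-fold lower at day 3 in Ctrl, 8 held TTTGAA, 5 the NRF1 core motif and 2 an E2F motif, against 3, 1 and 0 of the 25 other windows. The CCAAT box was in 11 of the 27 against 12 of the 25, the E-box in 5 against 4, the ETS motif in 4 against 3 and the CRE in 0 against 1. This split was not made over all compared genes, so its counts, which are small, have no background. Whether any motif goes with the day ratio was not tested. A match is a description of the letters and not a bound site.

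The 250 bases before the start are printed for Kpna2, which had the largest day difference, for Ranbp1, the most abundant of the 51 genes per length, whose window held 4 of the motifs, and for Aaas, the gene past 2-fold by genotype. They are the - strand of GRCm38.p6 at chr11:106999526-106999775, chr16:18248695-18248944 and chr15:102350760-102351009, written 5′ to 3′ and ending at the base before the start, with motif matches in capitals.
Kpna2 promoter: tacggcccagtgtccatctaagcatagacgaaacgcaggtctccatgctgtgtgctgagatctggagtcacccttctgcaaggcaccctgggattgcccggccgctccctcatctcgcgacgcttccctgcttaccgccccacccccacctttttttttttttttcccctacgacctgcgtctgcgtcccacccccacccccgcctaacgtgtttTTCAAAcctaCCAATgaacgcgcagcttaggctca
Ranbp1 promoter: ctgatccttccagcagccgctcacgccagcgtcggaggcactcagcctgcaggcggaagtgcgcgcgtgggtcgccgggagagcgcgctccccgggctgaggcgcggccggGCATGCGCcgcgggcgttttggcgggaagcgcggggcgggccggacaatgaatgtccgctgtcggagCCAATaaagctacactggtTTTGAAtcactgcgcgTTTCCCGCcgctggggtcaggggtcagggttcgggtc
Aaas promoter: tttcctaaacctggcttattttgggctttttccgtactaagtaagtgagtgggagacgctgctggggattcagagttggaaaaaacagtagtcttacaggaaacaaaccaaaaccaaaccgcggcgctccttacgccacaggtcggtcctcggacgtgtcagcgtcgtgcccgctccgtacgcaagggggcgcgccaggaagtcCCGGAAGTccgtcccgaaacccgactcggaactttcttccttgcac
The Kpna2 window held TTCAAA, the other strand of TTTGAA, with its first base 35 bases before the start, and CCAAT 25 bases before it. The Ranbp1 window held the NRF1 core motif on the other strand (GCATGCGC) 139 bases before the start, CCAAT at 72, TTTGAA at 53 and TTTCCCGC at 37 bases before it. The Aaas window held the ETS motif CCGGAAGT 46 bases before the start and none of the other 6 motifs.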

How the data were processed

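Each of the 4 deposited library files lists 55122 RefSeq transcripts. HISAT, Bowtie2 and StringTie are named with mm10, per the submitters' processing notes. For the counting tool, strandedness, annotation release and filters, the labels and headers name nothing. Per the file headers the authors deposited read counts, which have decimals and are expected counts. The authors' expression value has no unit in its header and was taken as FPKM, since its ratio to the FPKM computed from counts and GENCODE lengths had a median of 1.00 in every library. The authors' deposited tables give a log2 ratio and an FDR (adjusted p-value), per the file headers, with no method named.

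Expected counts of the 17621 genes were summed over transcripts and rounded. Gene symbols for 17498 IDs were read from RefSeq (GRCm38.p6). Scaling used TMM in edgeR 4.0.16 (R 4.3.3), with factors of 0.962 for day 3 iKO, 1.02 for day 3 Ctrl, 1.06 for day 0 iKO and 0.966 for day 0 Ctrl. Ratios are log2((CPM1 + 1)/(CPM2 + 1)), a scale that shrinks ratios of low genes. They were computed for 12976 genes whose mean reached 1 CPM, and 2-fold was the threshold. Folds are ratios of CPM with an exact conditional 95% interval (scipy 1.17.1), for counting error only. No test was run, since each group has 1 library. Every gene of the set may be named, and all 4 values were given for the 5 highest and lowest ratios of each comparison, for every gene past 2-fold and for the largest ratio of each role. Of the other lists, up to 3 genes past 2-fold by genotype were named per direction and day, and Ddx39a was added after its values were seen. The genes, lists, motifs and thresholds were chosen with earlier results of these data known. For the genes beside the set, 2 listed symbols were matched by a synonym and 1 was not analysed here. Alternatives were library totals, size factors of DESeq2 1.42.0, the deposited FPKM, pseudocounts of 0.1 and 5, no minimum, a minimum of 5 CPM and a 1.5-fold threshold. As a check of the code, counts were simulated with counting error only, with no spread between cultures and 200 of 12976 genes altered 4-fold. Of the 200, 190 to 196 passed 2-fold in the 4 comparisons, as did 0 of the 12776 others. By this design about 95% of intervals should hold the true ratio, and 95.3% to 95.4% did. The simulation cannot show how often genes that do not differ pass 2-fold in real comparisons with 1 library per group.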

Additional observations from a re-analysis of the deposited data

Results flagged for a closer look

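For 10 genes the iKO library lay above the Ctrl library at day 3 and below it at day 0, with both counting intervals apart from 1, as for 6.94% of all 12976 compared genes. The difference itself was not tested, since each group has 1 library. The log2 ratio of iKO to Ctrl at day 3 minus that at day 0 was 1.00 for Nup93, 0.91 for Ndc1, 0.81 for Kpna2, 0.65 for Xpot, 0.52 for Xpo1, 0.46 for Xpo5, 0.46 for Nutf2, 0.43 for Kpna6, 0.42 for Kpna1 and 0.39 for Ipo8. For 9 of the 10 the directions stayed opposite under library totals, DESeq2 size factors, deposited FPKM and both other pseudocounts. Kpna6 was not counted, since its ratio at day 0 ran from -0.14 to -0.00, with the upper end below 0 only before rounding. The counting intervals were not computed again under these settings, so whether all 10 genes would still be flagged was not tested.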

How the results depend on the processing

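Under the alternatives 210 summary values stayed within the limits set for them and 20 moved. Of the log2 ratios of single genes, 1169 stayed within the counting interval and 259 moved outside it. A reversed sign was looked for only in medians at least 0.1 from 0 and in single genes past 2-fold, and 0 of these reversed. Smaller ratios could change sign without being counted. Examples over the scalings and pseudocounts are Kpna4 at day 0 (-0.11 to 0.02) and Ran at day 3 (-0.04 to 0.05), iKO against Ctrl. Scaling by library totals or the deposited FPKM gave a median log2 ratio of -0.24 for iKO against Ctrl at day 0 under both (-0.37 with TMM). The median for day 3 against day 0 in iKO was -0.79 and -0.76 under them (-0.66 with TMM), and in Ctrl -0.91 with deposited FPKM (-1.02 with TMM). Set against the median of all genes the shift was small: the gap ran from -0.37 to -0.28 at day 0, from -0.66 to -0.61 for the days in iKO and from -1.02 to -0.92 in Ctrl. For the difference between days, library totals gave a median of 0.17 and 15 genes below 0, and deposited FPKM gave 0.16 and 14 genes. The number of genes at or above 1 in that difference was 0 with library totals, deposited FPKM and a pseudocount of 5, 2 with DESeq2 size factors and a pseudocount of 0.1, and 8 at 1.5-fold (background 13.1%), and 3 genes lay below the median of all genes with no minimum. At 1.5-fold, 2 genes were lower and 2 higher in iKO at day 3, 12 were lower at day 0 and 30 were lower across the days in iKO (background 21.9%). With only transcripts of at least 10 counts in every library, 26 genes had 2 main transcripts, 9 of them moved with the day (background 22.7%) and 1 by genotype (background 7.43%). In the 250 bases before the start alone the CCAAT box was in 40.4% of windows against 33.8% of all. The causes were not tested. No paired analysis was possible because each group has 1 library and the labels carry no replicate numbers, and leaving out a replicate was likewise not possible. Protein features were not run. Depth limits the low genes most: Nxt1, with 8.59 CPM in day 3 iKO and 10.1 in day 3 Ctrl, had a fold interval of 0.684 to 1.05.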
